A study of Mus musculus with 4 samples.

Results

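The 98 genes described here had dexamethasone levels of at most 60% of the vehicle level in both replicate pairs of C2C12 myotubes. C2C12 is a female mouse myoblast line that fuses into multinucleated muscle cells. All cultures had been kept without steroids and then received vehicle or 1 µM dexamethasone, a synthetic glucocorticoid, for 2 h. RNA still held on the chromatin of isolated nuclei was sequenced, with 2 libraries per group and 4 in all. A gene was taken when its CPM (count scaled to a library total of 1000000) in dexamethasone 1 were at most 60% of those in vehicle 1, and likewise for dexamethasone 2 against vehicle 2. It also needed at least 50 counts in both vehicle libraries. Of 10144 symbols that met the count minimum and were not left out by name, 98 met both limits, or 0.966%. Another 6 features met the limits but carried names that were left out (4 listed symbols and 2 provisional gene models). The treatment comparison chose these genes, so their vehicle and dexamethasone values are a description and carry no test.

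The glucocorticoid receptor is a nuclear receptor that moves to chromatin when it binds its ligand. There it raises the transcription of some genes from glucocorticoid response elements. It lowers that of others, often where AP-1, NF-kappaB or other activators drive the gene. RNA on chromatin is mostly transcript in the making, so a short treatment can be read before the stock of mature mRNA has turned over. In muscle, glucocorticoids are known for wasting, and the genes they lower are less familiar than the ones they raise.

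The library totals ran from 19700546 counts in vehicle 1 to 88861775 in dexamethasone 2. The median count of the 98 genes ran from 281 in dexamethasone 1 to 1385 in dexamethasone 2, and 34 of the genes had under 200 counts in a vehicle library. Myotube markers were abundant in all libraries, with a summed level of 131414 and 55165 CPM in vehicle 1 and 2, and of 123780 and 52631 CPM in dexamethasone 1 and 2. The summed level was thus higher in both replicate 1 libraries than in both replicate 2 libraries. Most of each sum came from Ttn, with 111778 and 44213 CPM in vehicle 1 and 2, and 104378 and 41971 CPM in dexamethasone 1 and 2. Of 33 tested myotube markers, 0 passed an edgeR unadjusted p under 0.05 between treatments in either direction, and their median log2 fold change was 0.01. That fit counts the gap between replicate numbers as error, with a standard error of 0.722 for Ttn and 0.837 for Acta1. The 0 therefore cannot show that these genes were unchanged. The sums were at most 11.4 CPM for 8 endothelial markers and 7.19 CPM for 8 macrophage markers in the table. Fibroblast markers, 12 in the list, summed to 1080 and 1298 CPM with vehicle and 1205 and 963 CPM with dexamethasone, with Lum, Tcf21 and Thy1 listed at 0. The 9 tested had a median log2 fold change of -0.31, and -0.10 without the member Pdgfrb. At an unadjusted edgeR p under 0.05, 3 were lower and 2 higher, and their part in the values below was not tested. Nothing in the labels says that the libraries came from separate cultures, so the spread between them may be technical.

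The pair ratios ran from 14.7% to 59.5% in pair 1, with a median of 47.6%, and from 19.6% to 59.8% in pair 2, with a median of 51.0%. Over all symbols that could pass, the medians were 97.5% and 97.6%. In 10 genes both ratios were at most 40%, in 32 both were at most 50%, and in 31 both lay between 50% and 60%. The ratio was lower in pair 1 for 63 genes and lower in pair 2 for 35. The pairs differed by more than 1.5 times in 5 genes. In CPM, both dexamethasone libraries lay under both vehicle libraries in 84 of the 98 genes, where 12.9% of all tested genes do so. The other 14, among them Smad7, E2f2, Ajuba and Col8a2, had a dexamethasone 2 level above their vehicle 1 level. Just inside the limit, Basp1 stood at 59.5% and 57.9%, Igsf10 at 57.4% and 59.7%, and Lrp4 at 53.0% and 59.8%. Just outside it, Evi2b stood at 35.6% and 60.1%, and Dbp at 60.03% and 60.3%.

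**Figure D1:**
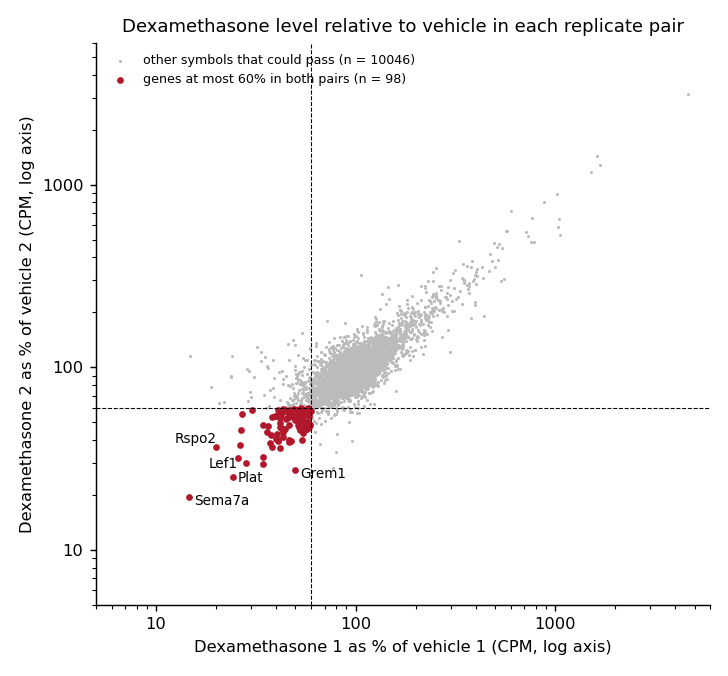
Dexamethasone CPM as a percentage of vehicle CPM in replicate pair 1 (x axis) and pair 2 (y axis), both on log axes, for the 98 genes (red) and the other symbols that could pass (grey). Dashed lines mark 60%, which set the choice of the red points; Sema7a lies lowest at 14.7% and 19.6%, while 31 red points have both values above 50%.

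edgeR's quasi-likelihood test over 13285 genes gave 0 lower genes (0%) and 5 higher ones with dexamethasone at the adjusted threshold of 0.05. At an unadjusted p under 0.05 it gave 225 lower genes (1.69%). DESeq2's Wald test called 53 lower and limma-voom 0. These tests had group as the only term, so differences between replicate numbers enter their error and the standard errors of the treatment fold changes. With replicate number added as a term, edgeR called many more genes in each direction, as given at the end. All 98 genes were abundant enough to be fitted. The smallest edgeR adjusted p among them was 0.123, which is a description, since the same comparison chose them. Their log2 fold changes ran from -2.48 to -0.74 with a median of -0.96, against -0.0016 over all tested genes. These fold changes are from edgeR with TMM scaling, which raises each pair's ratio slightly over plain CPM.

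Sema7a, which encodes a GPI-anchored semaphorin that signals through integrins and plexin C1, had the lowest ratios of all. With vehicle it was read 223 and 505 times (11.3 and 14.3 CPM), and with dexamethasone 54 and 249 times (1.66 and 2.80 CPM). Both dexamethasone levels were under 20% of their vehicle level, and the groups did not overlap. The log2 fold change was -2.48 (SE 0.272).

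Plat, the gene of tissue plasminogen activator, had 11.9 and 10.2 CPM with vehicle and 2.89 and 2.57 CPM with dexamethasone. Its pairs were close, at 24.2% and 25.2%, and its log2 fold change was -1.99 (SE 0.267). Both dexamethasone libraries lay far under both vehicle libraries.

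Lef1 encodes an HMG-box factor that carries Wnt signals to DNA with beta-catenin. It had 132 and 165 CPM with vehicle and 33.9 and 52.7 with dexamethasone, at 1104 counts or more in each library. It stood at 25.6% and 31.9% of vehicle, with a log2 fold change of -1.75 (SE 0.196). Creb3l1, a membrane-bound bZIP factor tied to secretion and collagen synthesis, had 83.2 and 134 CPM with vehicle and 28.5 and 39.3 with dexamethasone. In both genes the groups were well apart, since the higher dexamethasone level was under the lower vehicle level.

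The promoter stretches of 4 of these genes are shown, for a pair with low ratios and a pair with an AP-1 match. Each is the 250 bases before a RefSeq start site in GRCm38.p6, 5′ to 3′ on the gene's strand. Capitals mark a match to a motif named below (the TATA box was not marked), and a stretch without capitals holds none. Sema7a and Lef1 had among the lowest ratios, and Fas and Sema4c held an AP-1 match, as did windows of Syt6, Il16 and Nfix that are not shown. Of 4 RefSeq starts of Lef1 the first is shown. Windows of the other Lef1 starts, at chr3:131112541-131112790 and chr3:131156044-131156293, held a glucocorticoid half-site at positions -10 and -125. The Sema7a stretch is chr9:57939862-57940111 (plus strand), that of Lef1 chr3:131110047-131110296 (plus), that of Fas chr19:34290409-34290658 (plus) and that of Sema4c chr1:36558382-36558631 (minus).
Sema7a: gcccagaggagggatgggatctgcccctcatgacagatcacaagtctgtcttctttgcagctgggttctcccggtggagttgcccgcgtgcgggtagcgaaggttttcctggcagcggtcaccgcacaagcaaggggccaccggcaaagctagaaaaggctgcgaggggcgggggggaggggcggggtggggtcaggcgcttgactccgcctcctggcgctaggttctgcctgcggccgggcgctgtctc
Lef1: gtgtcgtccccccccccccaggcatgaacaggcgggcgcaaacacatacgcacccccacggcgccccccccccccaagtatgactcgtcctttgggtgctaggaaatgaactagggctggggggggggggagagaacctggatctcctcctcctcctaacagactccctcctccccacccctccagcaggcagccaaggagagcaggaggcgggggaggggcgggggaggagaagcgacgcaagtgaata
Fas: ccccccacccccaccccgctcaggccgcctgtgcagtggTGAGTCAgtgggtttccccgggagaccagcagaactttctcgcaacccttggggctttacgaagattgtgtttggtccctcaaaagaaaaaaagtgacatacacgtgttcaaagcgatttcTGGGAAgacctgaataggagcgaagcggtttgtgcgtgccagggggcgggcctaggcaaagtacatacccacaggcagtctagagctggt
Sema4c: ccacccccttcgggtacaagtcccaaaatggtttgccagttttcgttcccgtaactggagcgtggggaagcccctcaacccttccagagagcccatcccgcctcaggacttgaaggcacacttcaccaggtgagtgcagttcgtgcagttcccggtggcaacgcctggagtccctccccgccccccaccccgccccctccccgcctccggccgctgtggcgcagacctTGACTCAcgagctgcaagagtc
In Fas the capitals are an AP-1 match (TGAGTCA) at position -211 and an RBPJ match (TGGGAA). In Sema4c they are an AP-1 match (TGACTCA) at position -22 from the start site. The stretch before another Sema4c start, at chr1:36557558-36557807, held no match.

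RefSeq windows from 250 bases before to 50 after a start site were found for 65 of the 98 genes, 90 windows in all. Motifs were searched on both strands, and 13415 windows of tested genes gave the background. The full glucocorticoid response element, a pair of AGAACA half-sites facing each other 3 bases apart, was in 0 windows of the 98 genes and in 1 window of all tested genes. The half-site alone was in 11.1% of the members' windows and 12.7% of all. AP-1 (TGANTCA) was in 5.56% and 5.46%, TCF/LEF (CTTTGAT) in 3.33% and 2.60%, TEAD (CATTCC) in 12.2% and 12.4%, and RBPJ (TGGGAA) in 28.9% and 23.3%. These are shares of windows, not of genes. Windows of nearby starts overlap, so the same site can count more than once, as a TCF/LEF site of Wwtr1 and an RBPJ site of Mest do. The cyclic AMP response element TGACGTCA was in 0 of the 90 windows and 2.97% of all. An NF-kappaB sequence was in 1 of the 90 windows (1.11%), at a start of Il16, and in 0.432% of all. A single window cannot show a difference from all windows. GC content had a median of 63.0% in the members' windows and 60.3% in all, and the ratio of observed to expected CpG a median of 0.649 and 0.737.

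**Figure D2:**
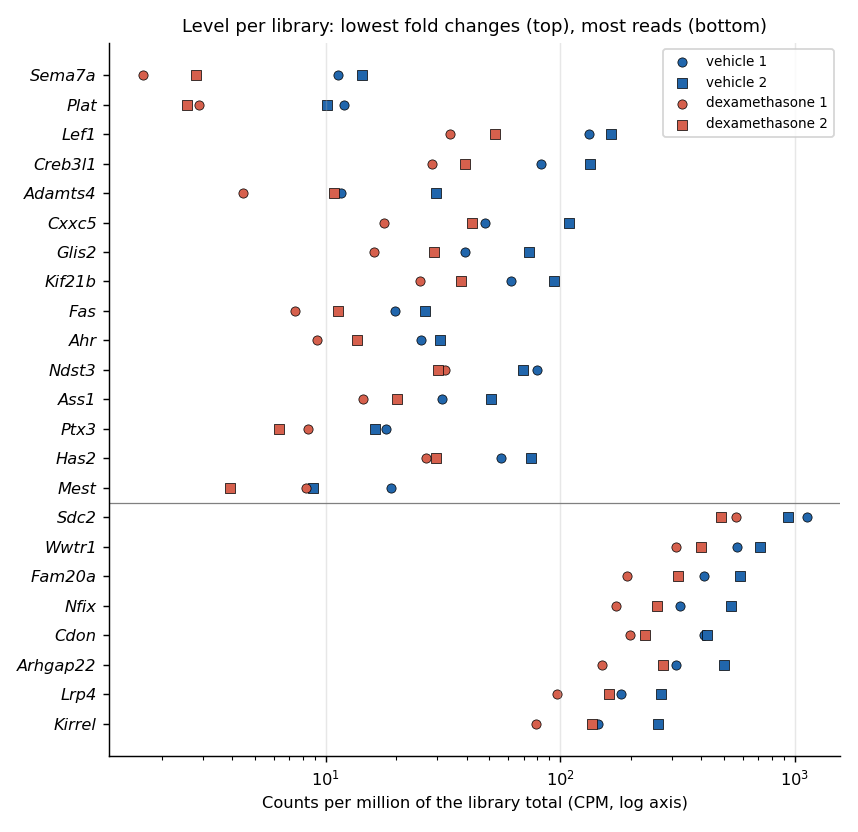
Level in each of the 4 libraries, in CPM on a log axis, of the 15 genes with the lowest log2 fold change among those with at least 200 counts in both vehicle libraries (above the line) and of the other 8 with the highest vehicle CPM (below it). Circles are replicate 1 and squares replicate 2, blue vehicle and orange dexamethasone; in Sema7a, Plat and Lef1 the orange points lie far left of the blue ones, while in Mest and Adamts4 the groups come close.

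Of 5 members with a role in Wnt signalling, Rspo2 and Lef1 ranked 3 and 4 of the 98 by mean log ratio, and Rspo3 and Lgr4 ranked 24 and 51. R-spondins are secreted proteins that bind LGR receptors and keep Frizzled receptors on the cell surface, which strengthens a Wnt signal. Rspo2 had 6.14 and 7.63 CPM with vehicle and 1.23 and 2.79 with dexamethasone, resting on 40 counts in dexamethasone 1. Its log2 fold change was -1.74 (SE 0.392), and it was -2.35 without dexamethasone 2. Here and below, a fold change without 1 library also takes in any difference between replicate numbers. Rspo3 had 7.61 and 7.04 CPM with vehicle and 3.29 and 2.91 with dexamethasone, at 43.2% and 41.4%. Their receptor gene Lgr4 had 144 and 133 CPM with vehicle and 63.9 and 76.9 with dexamethasone, at 44.4% and 57.6%. Cxxc5, whose protein binds Dishevelled and dampens the pathway, had 47.8 and 110 CPM against 17.7 and 42.3.

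The rest of the pathway did not share one direction. Of 67 Wnt genes listed, 49 were tested, and 4 of them are among the 98 (Rspo2, Rspo3, Lgr4 and Lef1). Their median log2 fold change was 0.02, with 25 above 0 and 24 below, and none passed an adjusted p under 0.05. Ror1, a Wnt5a receptor, had 87.0 and 76.7 CPM with vehicle and 624 and 422 with dexamethasone. For Ror1, edgeR gave a log2 fold change of 2.73 (SE 0.321; adjusted p 0.126), and for the Frizzled gene Fzd5 1.48 (SE 0.244; adjusted p 0.211).

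Genes of TGF-beta and BMP signalling included a ligand, a secreted antagonist and intracellular brakes. Tgfb1, the ligand, had 7.16 and 12.5 CPM with vehicle and 4.21 and 6.03 with dexamethasone. Grem1, whose product binds BMPs outside the cell, had 7.36 and 6.87 CPM against 3.66 and 1.89. Grem1 differed between pairs, at 49.7% and 27.5%, and its log2 fold change of -1.32 became -1.97 without dexamethasone 1 and -0.83 without dexamethasone 2. Smad7, which blocks TGF-beta receptors, had 18.1 and 41.4 CPM with vehicle and 7.86 and 19.1 with dexamethasone. Its ratios were close at 43.4% and 46.1%, while dexamethasone 2 lay above vehicle 1. Ranbp3l, whose product exports BMP-activated SMADs from the nucleus, stood at 30.1% and 58.4%.

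Of 61 listed genes of this pathway, 48 were tested, with a median log2 fold change of -0.14, 19 above 0 and 29 below, and none past the adjusted threshold. Smad3, Smad6 and Tgfbr2 were listed at 0 in every library and are not read as silent. The co-receptor gene Tgfbr3 went the other way from Smad7, with 9.80 and 18.7 CPM with vehicle and 39.3 and 53.2 with dexamethasone (log2 fold change 1.74, SE 0.294; edgeR adjusted p 0.213). Hes1 and Heyl, repressors that Notch switches on, were the members from the Notch list, where 26 of 33 genes were tested with a median of -0.02. Hes1 had 6.55 and 5.48 CPM with vehicle and 2.67 and 3.21 with dexamethasone. Heyl had 11.5 and 7.18 CPM against 6.21 and 2.88.

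**Figure D3:**
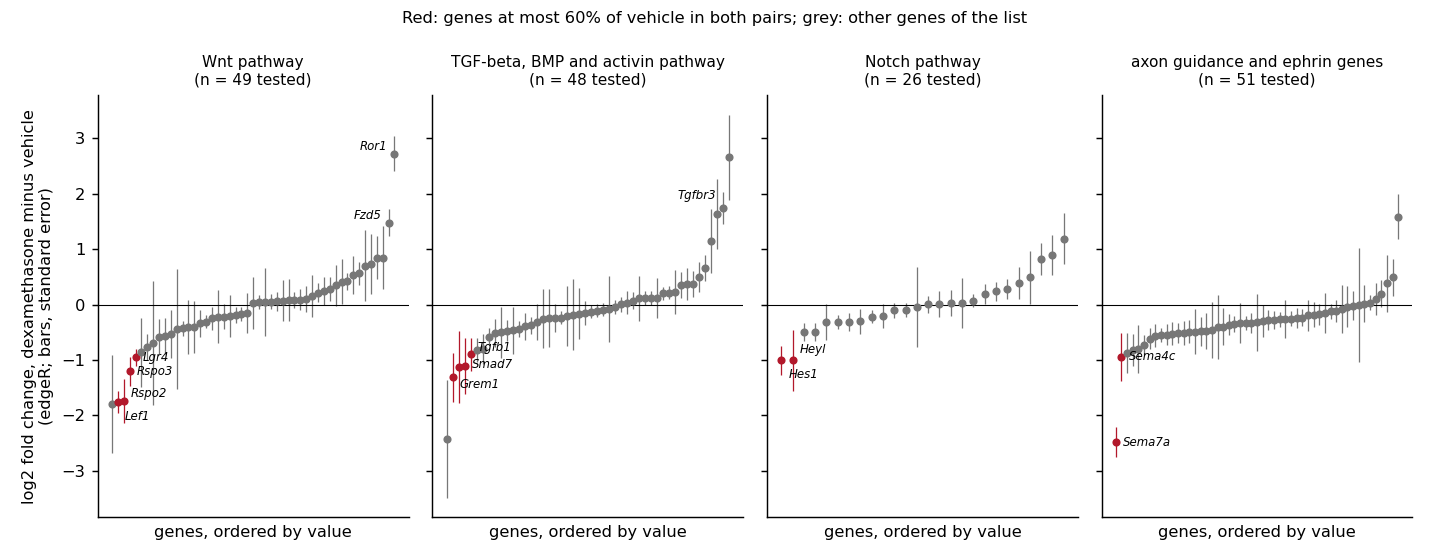
log2 fold change, dexamethasone minus vehicle, with its standard error, for all tested genes of 4 lists, each ordered by value; red points are among the 98 genes and grey points are not. In the Wnt panel the red genes lie at the low end while Ror1 and Fzd5 lie high, and in the axon guidance panel 44 of 51 genes lie below 0.

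Sema7a and Sema4c came from a list of 63 axon guidance and ephrin genes. Of the 51 tested, 44 had a log2 fold change below 0 and 7 above, with a median of -0.32, and -0.30 without the members. None passed an adjusted p under 0.05 in edgeR. At an unadjusted edgeR p under 0.05, 8 were lower and 1 was higher, against 225 lower (1.69%) and 543 higher of all 13285 tested genes. In 20 of the 51, the member Sema7a among them, both dexamethasone libraries lay under both vehicle libraries, against 12.9% of all tested genes. Sema4c, a transmembrane semaphorin, had 23.1 and 44.8 CPM with vehicle and 10.6 and 24.0 with dexamethasone. Among the others below 0, Sema6a had a log2 fold change of -0.82 (SE 0.287), the semaphorin receptor gene Nrp1 -0.62 (SE 0.190) and its partner Plxna1 -0.55 (SE 0.131). The 7 genes above 0 are not named here.

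Growth factor genes held a ligand and a receptor of the same family. Pdgfa, the ligand, had 15.2 and 22.8 CPM with vehicle and 8.88 and 12.3 with dexamethasone. Pdgfrb, a receptor that binds the B chain of platelet-derived growth factor rather than Pdgfa's product, had 121 and 221 CPM against 63.7 and 112. Inside the cell, Pik3r3, a regulatory subunit of PI3-kinase, stood at 52.1% and 47.4%. Rerg, a Ras-like GTPase, stood at 41.9% and 49.2%, and Rassf5, a Ras effector, at 44.1% and 45.7%. Grb14, an adaptor that inhibits the insulin receptor, stood at 54.2% and 58.7%, and the MAP kinase phosphatase gene Dusp4 at 43.5% and 59.1%. Lrig1, which restrains growth factor receptors, had 71.7 and 84.2 CPM with vehicle and 39.1 and 49.3 with dexamethasone. The other members of this role were Gfra2, Nab1, Elk3, Prkcb and Plcd3, and the 13 genes had a median log2 fold change of -0.86.

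Matrix genes formed the largest role, with 15 members and a median log2 fold change of -1.02. Adamts4, which cleaves aggrecan and versican, had 11.6 and 29.7 CPM with vehicle and 4.45 and 10.9 with dexamethasone. Has2, a hyaluronan synthase, had 55.9 and 74.8 CPM against 26.7 and 29.5, and its log2 fold change was -1.17 (SE 0.147). Has2 and Plat were the members from a list of 45 genes that glucocorticoids lower in other cells. Of its 34 tested genes 22 were below 0 and 12 above, with a median of -0.32 (-0.24 without Has2 and Plat) and none past the adjusted threshold. Col8a2, a short-chain collagen, had 5.03 and 18.2 CPM with vehicle and 1.72 and 5.85 with dexamethasone. Ptx3, a secreted pattern recognition protein that binds hyaluronan matrix, had 18.1 and 16.3 CPM against 8.39 and 6.36.

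Several of the matrix members act on heparan sulfate, the sugar chain that holds growth factors at the cell surface. Sdc2, the core protein syndecan 2, was read with the most counts of the 98 genes: 22287 and 33098 with vehicle and 18376 and 43183 with dexamethasone. That is 1131 and 939 CPM against 565 and 486, at 49.9% and 51.8%. Ndst3, an enzyme that removes acetyl groups from the chain and adds sulfate, had 80.0 and 69.8 CPM against 32.3 and 30.1. Hs6st1, a 6-O-sulfotransferase, had 131 and 221 CPM against 72.9 and 109. In Sdc2 and Ndst3 both dexamethasone libraries lay well below both vehicle libraries. The other matrix and glycan members were Nid1, Mrc2, Ccdc80, Igsf10, Fam20a, Gxylt2 and Man1c1, at ratios of 40.2% to 59.7%. Over the matrix and adhesion list, 68 of 80 genes were tested, with a median of 0.11, 39 above 0 and 29 below, and none past the adjusted threshold.

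Of 13 transcription factors and cofactors, Ahr, the receptor for dioxin and other aryl hydrocarbons, had 25.5 and 30.8 CPM with vehicle and 9.22 and 13.7 with dexamethasone. Glis2, a Krüppel-like zinc finger factor, had 39.5 and 73.5 CPM against 16.1 and 29.1. Nfix, which drives the fetal muscle programme, had 325 and 538 CPM against 173 and 259. Wwtr1 (TAZ), a coactivator of TEAD factors, had 570 and 709 CPM against 311 and 400. Ajuba, which restrains the LATS kinases of the same pathway, stood at 51.7% and 50.5%. Pax7, which marks muscle stem cells and unfused myoblasts, had 30.3 and 42.0 CPM with vehicle and 16.5 and 24.0 with dexamethasone. The cell cycle factor E2f2 stood at 42.1% and 54.7%, with a log2 fold change of -0.96 that became -1.62 without dexamethasone 2 and -0.51 without dexamethasone 1. Hoxc13, Zfpm1, Sertad2, Tnrc18 and Creb3l1 also had this role.

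Pax7 and Heyl also stand in a list of 23 markers of myoblasts and of reserve cells, the mononucleated cells that remain in a myotube culture. Of its 21 tested genes, 16 had a log2 fold change below 0 and 5 above, with a median of -0.26 (-0.22 without Pax7 and Heyl). None passed the adjusted threshold. The summed level of the list was 2012 and 2376 CPM with vehicle and 1987 and 2321 with dexamethasone. Myf5 had a log2 fold change of 0.30 (SE 0.471), Myod1 of -0.27 (SE 0.189) and Cdh15 of -0.17 (SE 0.122). In bulk RNA, fewer cells of a type and less RNA per cell cannot be told apart.

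Adhesion and synapse genes had their highest counts in Cdon, a cell surface receptor that promotes myoblast differentiation. Cdon had 413 and 422 CPM with vehicle and 199 and 230 with dexamethasone, with little spread inside each group. Lrp4, the agrin receptor of the neuromuscular junction, had 182 and 269 CPM against 96.7 and 161. Kirrel, an immunoglobulin protein, had 144 and 262 CPM against 78.6 and 137. Gprin3 stood at 52.7% and 45.1%, and Syt6, Syt17, Nkain1, Pcdh17 and Basp1 at ratios from 36.2% to 59.5%.

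Of the immune signalling members, Fas, the death receptor, had 19.7 and 26.5 CPM with vehicle and 7.43 and 11.3 with dexamethasone. The cytokine gene Il7 had 3.35 and 3.43 CPM against 0.891 and 1.56, resting on 29 counts in dexamethasone 1. Bcl3, a nuclear partner of NF-kappaB, stood at 44.7% and 52.0%, Traf4 at 51.6% and 52.1%, and Il16 at 54.3% and 58.4%. Of a list of 51 inflammatory mediators, 12 met the count minimum and 0 were among the 98. The rule leaves out some genes of this kind by name, so nothing is read from that count. The 24 tested genes of the list had a median log2 fold change of -0.07.

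G protein signalling held Gper1, a membrane oestrogen receptor, at 26.5% and 37.3%, but with 28 to 84 counts in all libraries. The prostaglandin F receptor gene Ptgfr had 5.84 and 5.19 CPM with vehicle and 2.00 and 2.52 with dexamethasone. The cyclic nucleotide phosphodiesterase gene Pde8a had 18.9 and 21.6 CPM against 7.19 and 11.6. Rgs3, Gpr137b and Gpr153 stood between 39.3% and 57.6%. Among metabolic members, Abcg1, a cholesterol exporter, had 2.84 and 8.11 CPM against 0.799 and 2.43. Lpl, the lipase that frees fatty acids from lipoproteins, had 8.73 and 8.37 CPM against 3.19 and 3.98. Ass1, an enzyme of arginine synthesis, had 31.2 and 50.6 CPM against 14.4 and 20.2. Pltp, Elovl6 and Tlcd4 stood between 46.1% and 58.0%.

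Of 10 cytoskeletal and small GTPase genes, the kinesin gene Kif21b had 61.9 and 94.6 CPM with vehicle and 25.3 and 37.8 with dexamethasone. Arhgap22, a Rac GTPase-activating protein, had 312 and 497 CPM against 151 and 274. Cyria, which binds Rac1, stood at 26.9% and 55.5%, the widest relative gap between pairs of the 98 genes. Its log2 fold change of -1.53 became -0.47 without vehicle 1. Micall2, Cdc42ep1, Asap3, Synpo, Fhdc1, Gas2 and Veph1 made up the rest, with ratios from 39.9% to 58.6%. Outside these roles, Ndrg1, a stress-responsive gene, had 120 and 159 CPM against 50.6 and 73.7. Mest, an imprinted gene, had 19.0 and 8.85 CPM with vehicle and 8.26 and 3.90 with dexamethasone. Cdr2l, Tmem151a, Ptms, Ccdc114 and the antisense RNA Tsix were the others.

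**Figure D4:**
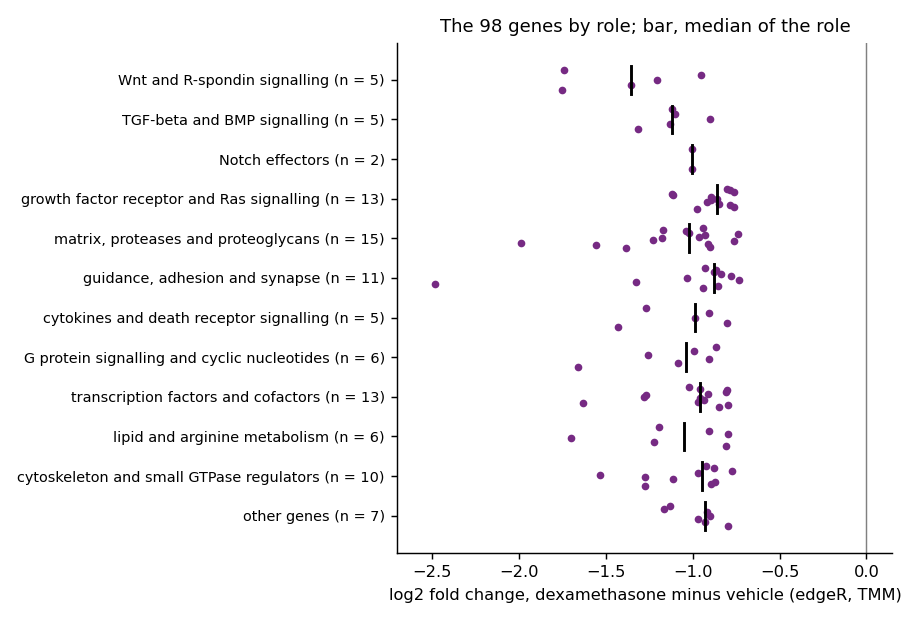
log2 fold change, dexamethasone minus vehicle, of each of the 98 genes (points), grouped by role with the number of genes in each; black bars are medians. The roles were assigned after the genes were known, and their medians lie between -1.35 for Wnt and R-spondin signalling and -0.86 for growth factor receptor and Ras signalling.

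The rule set no difference between replicate numbers, but it is not wholly independent of a test of that difference. With group as a term the error is the gap between the ratios of the pairs, and the rule limits both ratios. The counts of calls below are therefore a description and support nothing. With group as a term, edgeR's quasi-likelihood test called 51 of the 98 genes higher in replicate 2 (52.0%) and 14 higher in replicate 1 (14.3%) at an adjusted p under 0.05. Of all tested genes 22.2% were higher in replicate 2 and 22.1% in replicate 1, and of symbols that could pass the count rule 25.4% and 24.7%. The median log2 difference of the 98 genes was 0.31, against 0.01 over all tested genes. Higher in replicate 2 were Col8a2 (log2 difference 1.63, SE 0.119), Gfra2 (1.46, SE 0.135) and Abcg1 (1.36, SE 0.169). Higher in replicate 1 were Mest (-1.28, SE 0.0958) and Cyria (-1.20, SE 0.258). Cdon, Nab1, Ccdc80, Gas2, Lrig1 and Has2 were not called between replicate numbers, with log2 differences of -0.07 to 0.10. Among 13 transcription factors and cofactors 9 were higher in replicate 2 and 0 in replicate 1. This fit leaves 1 residual degree of freedom, and without group as a term it called 0 of the 98 genes (3 at an unadjusted p under 0.05). Of all 13285 tested genes, the fit without group called 512 higher in replicate 2 and 770 higher in replicate 1. Myotube markers moved with the replicate number too, with 27 of 33 higher in replicate 1 and 0 in replicate 2, and their part in the difference was not tested.

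**Figure D5:**
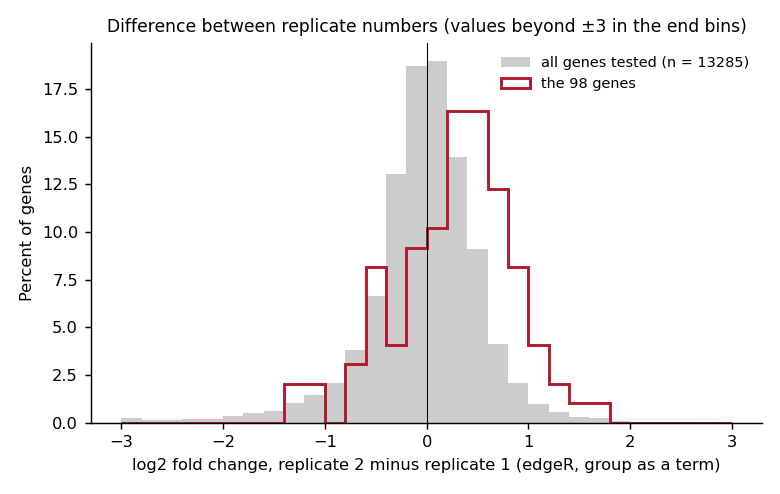
Distribution of the log2 difference between replicate numbers (replicate 2 minus replicate 1, x axis) as percent of genes (y axis), for all 13285 tested genes (grey) and the 98 genes (red line). The red line is shifted to the right of the grey bars, with medians of 0.31 and 0.01.

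By the GENCODE M21 annotation, the 98 genes had a larger median span than the other genes, which is given as a description. The span from start to end had a median of 45.2 kb with quartiles of 24.97 and 95.6 kb, against 28.4 kb (12.96 and 65.3 kb) over symbols that could pass. The summed exon length was alike, at 4.94 and 4.89 kb. By this annotation 97 of the 98 are protein-coding, the exception being Tsix. The 51 genes higher in replicate 2 had a median span of 40.3 kb and the 14 higher in replicate 1 a median of 70.7 kb. The 33 not called had a median of 67.5 kb. Over all tested genes the medians were 26.7 kb for those higher in replicate 2, 29.8 kb for those higher in replicate 1 and 23.3 kb for those not called. In the order of the symbols that could pass, 3 pairs of members were direct neighbours: Gpr137b and Nid1, Veph1 and Ptx3, and E2f2 and Asap3. Another gene of coding, long noncoding or antisense type overlaps 41 of the 98, a coding gene 19, and 4 have an overlap on the same strand. Ptx3 lies opposite Veph1, and Tsix overlaps Xist. Whether the counting used strand is not given in the sources used here, so reads of such partners may not be told apart.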

How the data were processed

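The authors deposited raw read counts per gene in 1 table, with 2 vehicle and 2 dexamethasone libraries; columns were matched to samples by name and replicate number. Per the submitters' processing notes, TopHat2 2.0.13, SAMtools 1.1, HTSeq 0.6.1, DESeq2 1.18.1 and the mm9 build were used, in roles not given; the annotation is not given in the sources used here. The protocol text names both a stranded total RNA kit and a stranded mRNA kit. Of 23333 rows, 51 that repeat a gene and its counts were used once, which left 23282 features. CPM and pair ratios used the sums over all rows.

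Fits used edgeR 4.0.16 in R 4.3.3 (TMM, factors 0.924 to 1.08; filterByExpr; quasi-likelihood test; Benjamini-Hochberg adjustment over 13285 genes, threshold 0.05), with group as the only term for treatment and with group plus replicate number for the replicate difference. Standard errors are the fold change divided by the root of the F statistic. The fits were run on simulated data that varied far less between libraries than these data do. No simulated gene had both a treatment and a replicate difference. That run therefore checked the direction and size of the fold changes, and cannot show how the fits perform on these data. Alternatives used DESeq2 1.42.0, limma 3.58.1 and other scalings, filters and limits. Relative counting error follows a gene's own count, which is not always highest in dexamethasone 2, the deepest library. Sema7a, for one, had 505 counts in vehicle 2 and 249 in dexamethasone 2.

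The members and the gene lists were chosen with earlier results of these data known; roles were assigned after the members were seen. Genes were named by rule: the 15 lowest fold changes with at least 200 counts in both vehicle libraries, the 8 highest vehicle CPM, list members, the 3 nearest to each side of the limit and the 3 largest replicate differences each way. Some genes that the rule names are not reported here. The remaining names were chosen after their values were seen. Spans come from GENCODE M21 and promoters from RefSeq (both GRCm38), matched by identifier or symbol.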

Additional observations from a re-analysis of the deposited data

How the results depend on the processing

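The number of genes that met the rule was 32 with a ratio limit of 0.5, 237 with 0.7 and 25 when all 4 dexamethasone to vehicle ratios had to be at most 0.6. TMM-scaled CPM gave 86, all of them among the 98. A vehicle minimum of 20 or 100 counts gave 119 and 83, and libraries thinned to the smallest total gave 95, of which 86 were shared.

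Across all genes edgeR called 5 higher and 0 lower. The Wald test of DESeq2 gave 235 higher genes and 53 lower ones of 13285 tested. Of the 53, 36 are among the 98, which the same comparison chose, so that count supports nothing. From limma-voom came 0 and 0 (540 and 231 at an unadjusted p under 0.05), and edgeR with no filter beyond 1 count gave 23 higher. Nothing in the labels ties a replicate number to a day or batch, so the main fit has no term for it. The replicate differences of the groups nonetheless correlated across 13285 genes (r = 0.734), and the main fit counts them as error. With the replicate block, 913 genes were called higher and 768 lower, with all 98 among the lower; the choice used the same pairs. Leaving out 1 library gave 4 to 84 higher and 0 to 109 lower genes. The high values came without vehicle replicate 2 (84 and 109), and without dexamethasone replicate 1 or 2 there were 24 and 28 higher. The lone library left in a group is then assumed to vary like the others. The cause was not tested.

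The median log2 fold change of the 98 genes ran from -0.99 to -0.95 over scalings, filters, tools and the block, and from -1.22 to -0.78 when a library was left out. Of 50 named genes, all kept their direction and moved by less than the spread within groups in 400 fits with other settings. Nearly all of these genes were chosen for low ratios in the same libraries. The spread within groups also holds the gap between replicate numbers, and was 1.14 for Col8a2 and 1.02 for Gfra2. That outcome was thus nearly set in advance and supports nothing. When a library was left out, 183 fits moved less than that spread and 16 moved more. Gfra2 ran from -1.75 to 0.11, with the reversed value of 0.109 without vehicle replicate 2. Such fits hold unequal replicate numbers in the groups, so a replicate difference enters the fold change. Gfra2 stood at 52.5% in pair 1 and 58.8% in pair 2, and was higher in replicate 2 (log2 difference 1.46). Between replicate numbers, DESeq2 called 42 of the 98 genes higher in replicate 2 and 8 in replicate 1. Of all 13285 tested genes it called 1709 and 1892. Library size only gave 67 and 10 of the 98, and 5479 and 1701 of all tested genes. With that scaling the calls of all genes, not only of the 98, leaned to replicate 2. No group term gave 0 and 0 of the 98, and 512 and 770 of all tested genes. Genes near 50 counts have little precision in vehicle 1.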
